A study of Mus musculus
Rattus norvegicus and Mus musculus with 6 samples.

Results

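Integrins, cadherins and the other membrane proteins through which cells hold on to each other and to the matrix were examined in hematopoietic stem cells (SC) of mouse bone marrow that had or had not been kept together with heart muscle cells. The genes were chosen by symbol: integrin alpha and beta chains, cadherins, protocadherins, Cadm, ICAM and VCAM, selectins, claudins, junctional adhesion molecules, nectins, CEACAM molecules and a few single molecules such as Pecam1 and Alcam, without Itga2b. Of 8102 genes that could be named on the array, 99 matched these symbols. Among them, Selenbp1, Selenof, Selenoi and Selenok match only by their letters and are no adhesion genes, which left 95 adhesion genes. The mouse RefSeq gene table lists 206 adhesion genes under the same symbols, and the 111 others, among them Itgb1, Itgb2, Icam1 and Cdh5, were not analysed here.

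Integrins are pairs of an alpha and a beta chain that bind matrix proteins or counter-receptors on other cells and connect them, through adaptors such as talin and tensin, to actin. Cadherins bind their own kind on the neighbouring cell and are anchored by catenins. In bone marrow, integrins, VCAM-1 and related molecules of the immunoglobulin superfamily hold hematopoietic SC and their offspring in the stroma, and leukocytes use the same molecules to enter tissue.

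RNA of lin-/c-kit+ SC was measured on 6 bead arrays. For 3 arrays, SC of C57Bl/6 mice labelled as male had been cocultured for 48 h with neonatal rat ventricular cardiomyocytes (NRVCM) of 1 to 2 days old Wistar rats labelled as female. For the other 3 arrays, SC of the same strain and labelled sex had been monocultured for 48 h. The mice carried no engineered allele and received no agent according to the labels, and their age is not given in the sources used here. All SC had been enriched with magnetic beads, stained with the dye CFDA, detached with trypsin and sorted by FACS in consecutive rounds. The antibody mixture that removed mature cells contained one against CD11b, the protein of Itgam, so the starting cells were selected against 1 of the genes described here. Monoculture wells held more SC than coculture wells, and the effect of NRVCM and that of SC number per well cannot be told apart. According to the deposited description, each array stands for a separate experiment with its own preparation of cells.

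Some values went against the labels. Eif2s3y and Kdm5d, both on the Y chromosome, gave a signal on a single array, that of coculture replicate 2, with log2 values of 8.93 and 6.94. Ddx3y and Uty, also on the Y chromosome, stayed at background on all 6 arrays, with 6.19 and 6.46 on that array. Xist, which is made by cells with an inactive X chromosome, had a log2 signal of 6.84 on coculture replicate 2 and of 8.21 to 8.80 on the other 5. H2-D1, an MHC class I gene that differs between mouse strains, had log2 signals of 11.83, 12.30 and 12.68 in coculture and stayed between 6.39 and 6.43 in monoculture. H2-K1, another such gene, went the other way, with means of 8.06 in coculture and 9.51 in monoculture (limma adjusted p = 0.0284). The origin of the mice and coculture therefore cannot be told apart. Results that change without coculture replicate 2 are given with and without it. Over all probes, arrays of one group correlated at r = 0.987 to 0.993 and arrays of different groups at 0.967 to 0.977. Of 4 measured progenitor markers, Sox4 had log2 signals of 8.16 to 8.91, Erg exceeded the background limit on 1 array, and Hlf and Slamf1 stayed at background on every array, whereas Kit and Cd34 were not analysed here. Of 5 measured heart muscle markers, 3 were at background on all arrays. The summed signal of the 5 was 561 to 570 in coculture and 528 to 550 in monoculture.

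Most adhesion genes gave no signal above background. An array's background limit was set by 22 control probes against reporter and vector sequences, at the signal of the brightest one (6.57 to 6.71 on the log2 scale). On all 6 arrays, 56 adhesion genes (58.9%) lay at or below that limit, compared with 34.9% of all named genes. A further 25 (26.3%, compared with 53% of all named genes) were above it on all 3 arrays of a group. All of these 25 were above it in monoculture and 18 of them in coculture, and none was above it on all coculture arrays only. All named genes leaned the same way. Of 4295 above the limit on all 3 arrays of a group, 4155 were so in monoculture and 3944 in coculture. The 7 genes above the limit on all monoculture arrays but not on all coculture arrays were Cadm1, Ceacam19, Itgb4, Itgam, Pcdh1, Pcdha1 and Pcdha11. The last 3 lay close to the limit in both groups. The 56 genes at background had log2 fold changes (coculture minus monoculture) between -0.12 and 0.15.

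**Figure D1:**
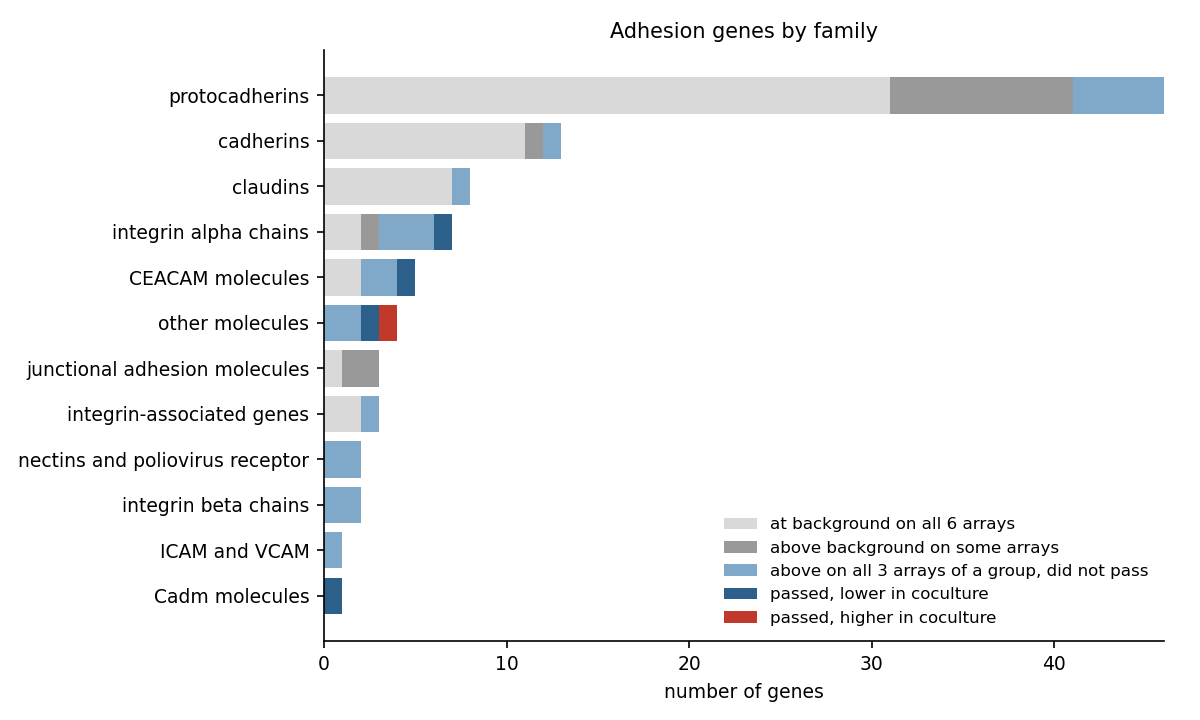
Number of adhesion genes in each family (horizontal axis), divided by where their signal lay against the background limit and by the outcome of the test. Protocadherins, cadherins and claudins make up most of the genes at background, and the genes that were lower in coculture belong to 4 different families.

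Between cocultured and monocultured SC, 4 adhesion genes were lower and 1 was higher. Cadm1, Ceacam19, Itgal and Alcam fell. No gene was called higher without coculture replicate 1, coculture replicate 2, monoculture replicate 1 or monoculture replicate 2. A gene was called at an adjusted p under 0.05 (limma with Benjamini-Hochberg adjustment over all 46628 probes, two-sided) and a difference of more than 1.5-fold. By this rule 4.21% of the adhesion genes were lower and 1.05% higher, beside 2.81% and 2.97% of all named genes (1.93% and 1.73% of all probes). The groups did not overlap in 18 adhesion genes that were lower (18.9%, compared with 13.6% of all named genes) and in 10 that were higher (10.5%, compared with 14.6%). The median log2 fold change was -0.01 over the adhesion genes and 0.00 over all named genes. Of the 25 genes above background, 16 had a fold change below 0 and 9 had one above 0. Of the 4295 named genes above it on all 3 arrays of a group, 2082 and 2213 did. The 7 adhesion genes above it on all arrays of monoculture only all had a fold change below 0. The filter itself therefore adds to that side, and the split of the 25 shows no direction of the adhesion genes. An unadjusted p under 0.05 was reached by 16 of the 95 adhesion genes and by 2064 of the 8102 named genes. In these sorted but mixed cells, a smaller share of cells that express a gene and less RNA of it per cell cannot be told apart.

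**Figure D2:**
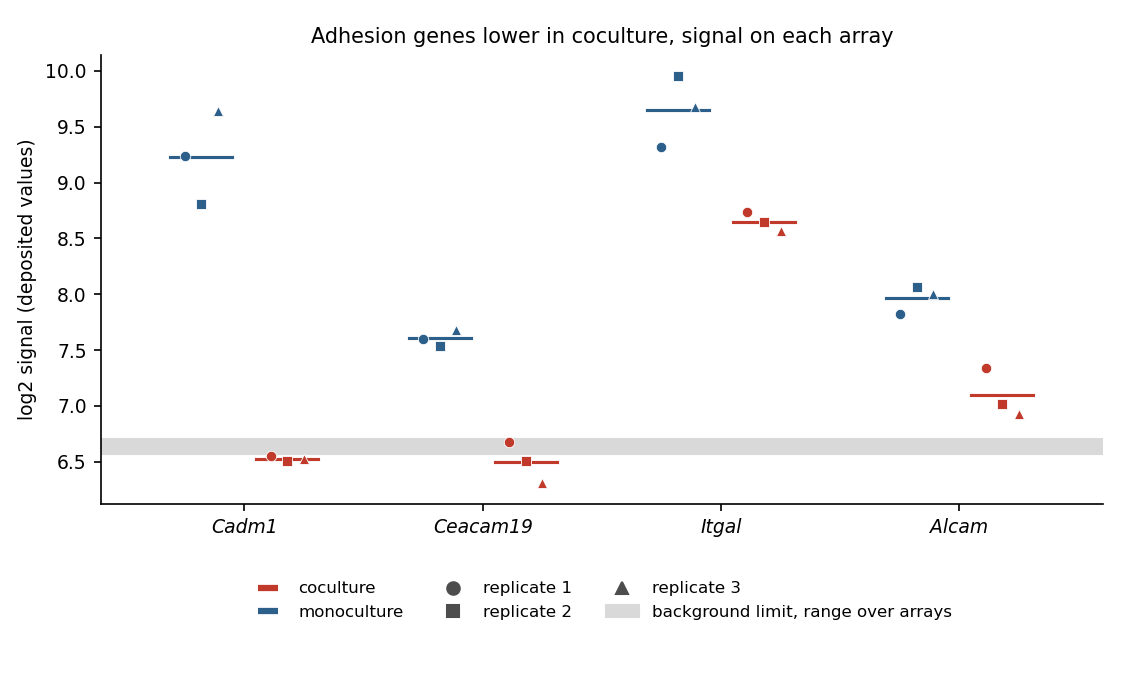
Deposited log2 signal (vertical axis) of the 4 adhesion genes that were lower in coculture, with 1 point per array, a bar at each group mean and a band for the range of the background limit. The groups do not overlap in any of the 4 genes, and Cadm1 lies inside or below the band on all coculture arrays.

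Cadm1 showed the largest difference among the adhesion genes. It encodes a cell adhesion molecule of the immunoglobulin superfamily (also called SynCAM or TSLC1) that binds itself and other nectin-like molecules on neighbouring cells. In monoculture its log2 signals were 9.24, 8.81 and 9.64, a mean of 9.23 ± 0.41 (SD, n = 3). In coculture they were 6.55, 6.51 and 6.52, all at background. With each coculture array set to its background limit, Cadm1 was at least 5.95-fold lower, and the fitted log2 fold change was -2.70 (standard error 0.19, 95% interval -3.16 to -2.23, limma adjusted p = 0.00173). The lowest monoculture array lay 2.25 above the highest coculture array on the log2 scale. Cadm1 was called under each alternative setting of the analysis.

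Alcam (CD166) is another member of the immunoglobulin superfamily, binds itself and CD6, and is present on hematopoietic progenitors, monocytes and marrow stroma. Its log2 signals were 7.34, 7.01 and 6.93 in coculture and 7.82, 8.07 and 8.0 in monoculture. Every coculture array lay below every monoculture array. The log2 fold change was -0.87 (standard error 0.12, limma adjusted p = 0.0123), a 1.82-fold lower mean.

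Ceacam19, a member of the carcinoembryonic antigen family whose role in blood cells is little known, had log2 signals of 6.67, 6.51 and 6.31 in coculture and of 7.60, 7.53 and 7.68 in monoculture. It was above background on all monoculture arrays and on 1 of 3 coculture arrays, so the difference is taken partly against signals at background. The mean of the measured signals was 2.16-fold lower in coculture (log2 fold change -1.11, standard error 0.10, limma adjusted p = 0.00325). A second probe for the gene stayed at background on every array (log2 fold change 0.05, adjusted p = 0.66), so the call rests on 1 of 2 probes.

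The other CEACAM genes above background were Ceacam1, an adhesion and inhibitory receptor of myeloid and epithelial cells, and its close paralog Ceacam2. Ceacam2 had log2 signals of 10.03, 9.86 and 9.11 in coculture and of 9.59, 9.42 and 8.94 in monoculture (log2 fold change 0.35, 95% interval -0.31 to 1.01, adjusted p = 0.615 in limma). For Ceacam1 they were 7.69, 7.63 and 7.28 in coculture and 7.21, 7.38 and 6.75 in monoculture (0.42, adjusted p = 0.302). Neither passed, and in both genes replicate 3 was the lowest array of its group. Whether the probes of these similar genes distinguish them is not known here.

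Itgal was the integrin chain that passed the test. It encodes the alpha L chain (CD11a), which with the beta 2 chain forms LFA-1, the leukocyte receptor for ICAM molecules. Its log2 signals were 8.74, 8.65 and 8.57 in coculture, close together, and 9.32, 9.96 and 9.67 in monoculture. The mean was 2.00-fold lower in coculture (log2 fold change -1.0, standard error 0.15, limma adjusted p = 0.0171). The adjusted p was 0.0554 without coculture replicate 1 and 0.0535 without coculture replicate 3, with log2 fold changes of -1.04 and -0.96. Its partner chain Itgb2 and its ligand gene Icam1 were not analysed here.

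The other integrin chains above background had lower means in coculture, but none passed. Itgb5, the beta 5 chain that pairs with alpha v to bind vitronectin, had log2 signals of 8.15, 8.69 and 8.24 in coculture and of 8.80, 9.09 and 9.43 in monoculture. The groups did not overlap, and the log2 fold change was -0.75 (standard error 0.20, 95% interval -1.22 to -0.27, limma adjusted p = 0.0917). Without coculture replicate 2, the array that differed from the others in Xist, it was -0.91 (adjusted p = 0.0491), past both thresholds. Itgav, the alpha v chain, had log2 signals of 6.75, 6.84 and 6.81 in coculture and of 7.08, 6.95 and 7.32 in monoculture (-0.32, adjusted p = 0.134). The groups of Itgav did not overlap either. Non-overlapping groups with the lower values in coculture occurred in 18.9% of the adhesion genes and 13.6% of all named genes.

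Itga6, the alpha 6 chain of the laminin receptors, had log2 signals of 6.89, 7.14 and 6.95 in coculture and of 7.34, 7.31 and 7.53 in monoculture. The groups did not overlap, but the difference was below 1.5-fold (log2 fold change -0.40, limma adjusted p = 0.0511, and 0.0313 without coculture replicate 2). Itgb4, the beta 4 chain that pairs with alpha 6 in epithelia, was above background on 1 coculture array and had log2 signals of 6.62, 6.60 and 6.59 there and of 6.88, 6.72 and 6.89 in monoculture (-0.23, adjusted p = 0.0746). Its signal was close to the limit on all arrays.

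Itgam, the alpha M chain (CD11b) of the complement receptor on neutrophils and macrophages and a target of the depletion antibodies, had log2 signals of 7.19, 7.33 and 6.65 in coculture and of 6.91, 7.46 and 7.07 in monoculture. The groups overlapped, and the log2 fold change of -0.09 had a 95% interval of -0.60 to 0.43 (limma adjusted p = 0.907). Itga1 exceeded the limit on 1 array, and Itga4 and Itga11 on none. Itga4 is the alpha chain of VLA-4, the receptor for VCAM-1, and its signal at background says only that this probe did not detect it.

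Itgb2l, a homolog of the beta 2 chain gene that is expressed in mouse neutrophil precursors, varied more between arrays of a group than any other adhesion gene above background. The log2 signals were 8.70, 8.95 and 7.33 in coculture and 10.04, 10.08 and 7.95 in monoculture, with replicate 3 the lowest in both groups. The SD was 0.87 in coculture and 1.21 in monoculture, beside median SDs of 0.112 and 0.129 over the 25 genes above background. The log2 fold change was -1.03 (95% interval -2.67 to 0.62, limma adjusted p = 0.538). Ltf, the lactoferrin gene of neutrophil granules, was also lowest in replicate 3, at 12.11 compared with 13.41 and 13.57 in coculture and at 11.03 compared with 14.16 and 14.03 in monoculture. The other measured neutrophil markers were mixed. S100a9 was lowest in replicate 3 of both groups by a small margin, and Csf3r in coculture only. Mpo and Elane were lowest there in neither group, and in monoculture replicate 3 was their highest array. The part of neutrophil precursors in the spread of Itgb2l was not tested. Itgb1bp1, which binds the tail of the beta 1 chain, and Itgbl1, a secreted protein with integrin-like repeats, stayed at background.

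**Figure D3:**
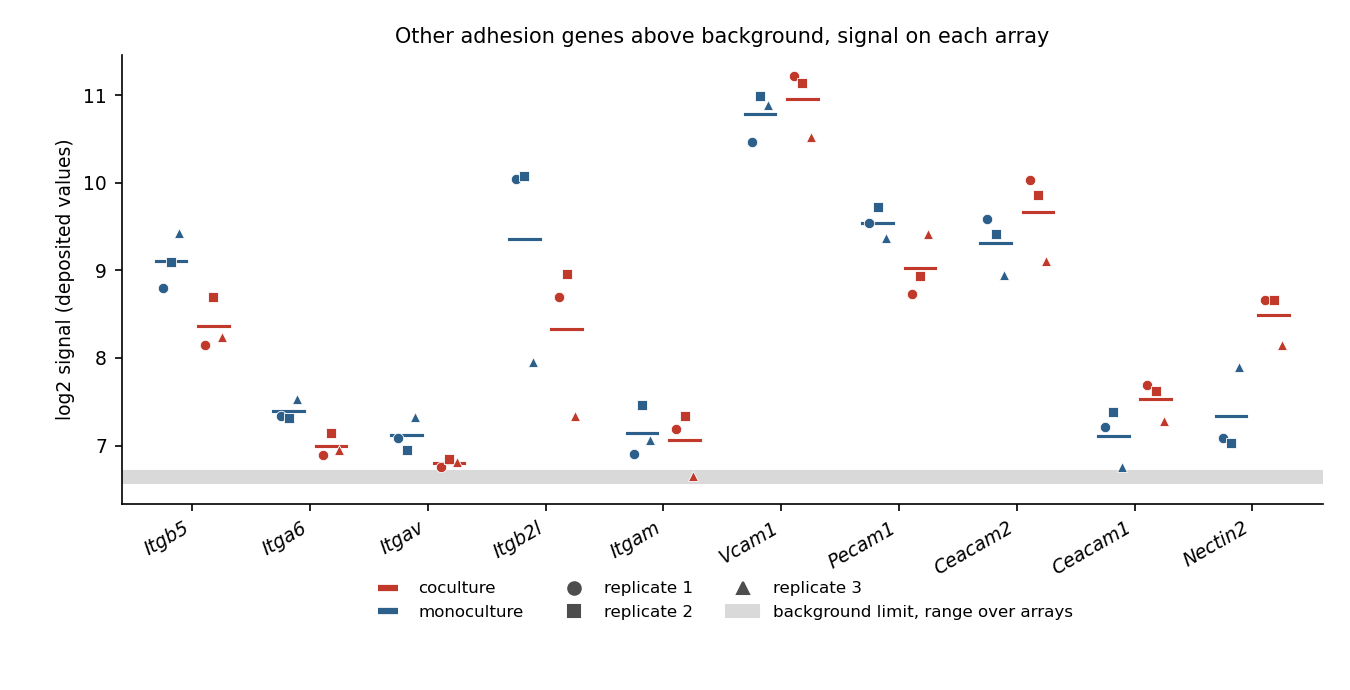
Deposited log2 signal (vertical axis) of 10 further adhesion genes above background, with 1 point per array, a bar at each group mean and a band for the range of the background limit. None passed the test; Itgb5, Itga6, Itgav and Nectin2 have groups that do not overlap, and replicate 3 lies apart in Itgb2l in both groups.

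Nectin2, which encodes a junctional immunoglobulin-like molecule and ligand of the lymphocyte receptor DNAM-1, had the highest positive fold change of the adhesion genes but did not pass. The log2 signals were 8.67, 8.67 and 8.15 in coculture and 7.08, 7.03 and 7.90 in monoculture. The groups did not overlap, with monoculture replicate 3 nearer to the coculture arrays than to the other monoculture arrays. The log2 fold change was 1.16 (standard error 0.26, 95% interval 0.53 to 1.79, limma adjusted p = 0.0558). Without monoculture replicate 3 it was 1.44 (adjusted p = 0.0157). A second, dimmer probe had means of 6.92 and 6.64 with a difference of 0.29 on the log2 scale (adjusted p = 0.30), and on it, too, monoculture replicate 3 was the highest of its group. Nectin1, of the same family, gave a log2 fold change of -0.10 (adjusted p = 0.527).

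Of Vcam1, Pecam1 and Emcn, adhesion molecules of vessels and other cells, none passed. Vcam1, which holds leukocytes and progenitors through VLA-4 and is also made by marrow macrophages, had log2 signals of 11.23, 11.15 and 10.52 in coculture and of 10.47, 10.99 and 10.89 in monoculture. The groups overlapped (log2 fold change 0.18, 95% interval -0.35 to 0.71, limma adjusted p = 0.778). Pecam1 (CD31), an adhesion molecule of endothelial cells, platelets and leukocytes, had log2 signals of 8.73, 8.94 and 9.41 in coculture and of 9.55, 9.73 and 9.37 in monoculture. Coculture replicate 3 overlapped with monoculture, and the log2 fold change was -0.52 (95% interval -0.96 to -0.08, adjusted p = 0.193). Without that array it was -0.72 (adjusted p = 0.0406), past both thresholds. Emcn, an endothelial sialomucin also found on early hematopoietic SC, was close to the limit (0.12, adjusted p = 0.338).

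Cadherins and protocadherins gave little signal. Of 13 cadherin genes, 11 stayed at background on every array, and the log2 signals of the family lay between 5.97 and 6.90. Cdh2, the N-cadherin gene of heart muscle and neurons, was just above the limit on all 6 arrays with its brightest probe (means 6.74 in coculture and 6.80 in monoculture, log2 fold change -0.06, limma adjusted p = 0.671), and its other 2 probes were at background. Of 46 protocadherin genes, many of which serve contacts between neurons, 31 were at background on all arrays. In the clusters, these were 7 of 11 Pcdha, 7 of 8 Pcdhb and 13 of 19 Pcdhg genes.

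Pcdhgc5 had the lowest adjusted p of the protocadherins. Its log2 signals were 7.19, 7.27 and 7.29 in coculture and 6.87, 6.92 and 6.99 in monoculture. The groups did not overlap, and the log2 fold change of 0.33 (standard error 0.05, limma adjusted p = 0.0178) amounted to 1.25-fold, below the threshold. Its second probe had one of -0.04 (adjusted p = 0.70). For Pcdhgb1, in the same cluster, the brighter probe showed a difference of 0.25 on the log2 scale (adjusted p = 0.166) and the dimmer one showed -0.04. Genes of the alpha and the gamma cluster share their last exons, and whether these probes lie in shared exons is not known here. Pcdh1, Pcdha1 and Pcdha11 had log2 fold changes of -0.10, -0.02 and -0.04.

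Genes of tight junctions were at or near background. Of 8 claudin genes, 7 were at background on all arrays. Cldn4, an epithelial claudin, was just above the limit on all 6 (means 6.76 in coculture and 6.74 in monoculture, log2 fold change 0.02, limma adjusted p = 0.928). Of the junctional adhesion molecules, Jam2 stayed at background on every array, and F11r and Jam3 exceeded the limit on some. Jam3, which is found on hematopoietic SC and endothelium, had means of 6.66 and 6.67.

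**Figure D4:**
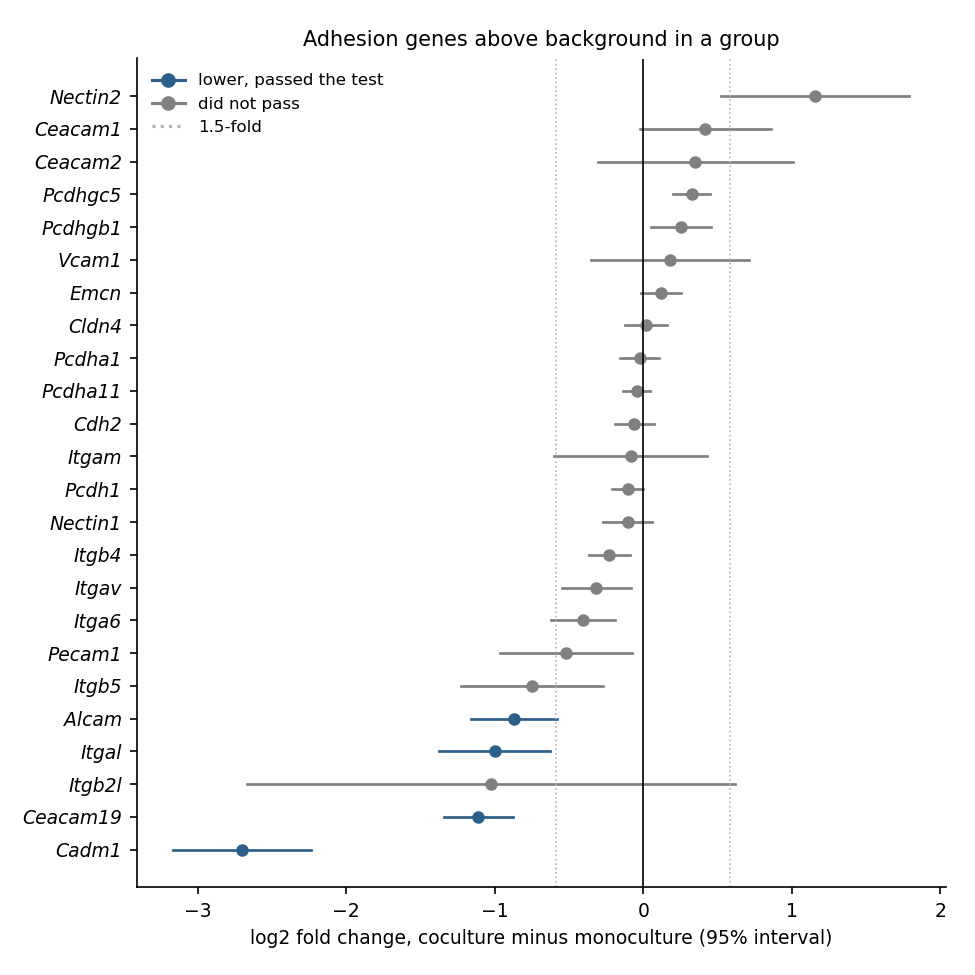
Log2 fold change, coculture minus monoculture, of 24 adhesion genes above background (horizontal axis), with the 95% interval from limma; dotted lines mark 1.5-fold. Cadm1 lies farthest to the left at -2.70, a value fitted to coculture signals at background, and Itgb2l has the widest interval.

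Of the proteins inside the cell that connect integrins to actin and to signalling, 20 of 36 listed genes were measured, of which 4 fell and 1 rose, beside the 2.81% lower and 2.97% higher of all named genes. Their median log2 fold change was -0.16. Tns1, a tensin that ties beta chains to actin at focal adhesions, had log2 signals of 7.11, 7.29 and 7.37 in coculture and of 9.0, 9.06 and 9.05 in monoculture (log2 fold change -1.78, limma adjusted p = 0.000352). Tns3, a further tensin, had signals of 8.09, 8.79 and 8.07 in coculture and of 10.12, 10.07 and 10 in monoculture (-1.75, adjusted p = 0.00619). In both tensins, all coculture arrays were more than 1 below all monoculture arrays on the log2 scale. A second, dim probe of Tns3 gave a log2 fold change of -0.24 (adjusted p = 0.23).

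Cd151, a tetraspanin that binds the laminin receptors, had log2 signals of 9.01, 9.13 and 8.97 in coculture and of 9.94, 9.72 and 10.15 in monoculture (-0.90, limma adjusted p = 0.00879), and its second probe had -1.02 (adjusted p = 0.0121). Zyx, the focal adhesion protein zyxin, had signals of 13.09, 13.36 and 13.12 in coculture and of 13.91, 13.82 and 13.78 in monoculture (-0.65, adjusted p = 0.0103). Tns1, Tns3, Cd151 and Zyx kept an adjusted p under 0.05 whichever array was left out. Cytip, which binds cytohesin-1 and thereby restrains LFA-1, moved the other way. Its signals were 12.30, 12.47 and 12.47 in coculture and 11.52, 11.87 and 11.82 in monoculture (0.68, adjusted p = 0.0165, and at most 0.0516 with an array left out). Ilk, the integrin-linked kinase, and Itgb1bp1 were among the 15 that were not called.

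Of the catenins and other plaque proteins under cadherins and tight junctions, 16 of 27 listed genes were measured, with 2 lower (beside 2.81% of all named genes), none higher (beside 2.97%) and a median log2 fold change of -0.02. Ctnnd1 (p120 catenin), which keeps cadherins at the membrane, had log2 signals of 9.90, 9.80 and 9.91 in coculture and of 10.71, 10.48 and 10.63 in monoculture (-0.74, limma adjusted p = 0.00385). A second probe of it had -0.33 (adjusted p = 0.0653). The count of lower genes was 1 without coculture replicate 1 and 1 without monoculture replicate 1. Ctnna1, the alpha catenin that joins cadherins to actin, gave a log2 fold change of -0.50 (adjusted p = 0.017), below 1.5-fold. Both catenins were above background although most cadherins measured were not.

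Among soluble and matrix ligands of integrins, 10 of 27 listed genes were measured, and 5 of them, including the collagen genes Col1a1, Col1a2 and Col3a1, were at background. The fibronectin gene Fn1 was listed but not analysed here. Thbs1, the matrix protein thrombospondin-1, was the only gene of the 10 called, and it was higher (beside 2.97% of all named genes). Its log2 signals were 9.08, 8.46 and 8.53 in coculture and 7.09, 7.82 and 7.34 in monoculture (1.27, limma adjusted p = 0.0275). With an array left out, the adjusted p stayed under 0.05 in only 2 of the 6 limma fits and reached up to 0.0911. With the replicate number as a block it was 0.102. Spp1, the integrin ligand osteopontin, gave a log2 fold change of 0.39 (adjusted p = 0.536).

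**Figure D5:**
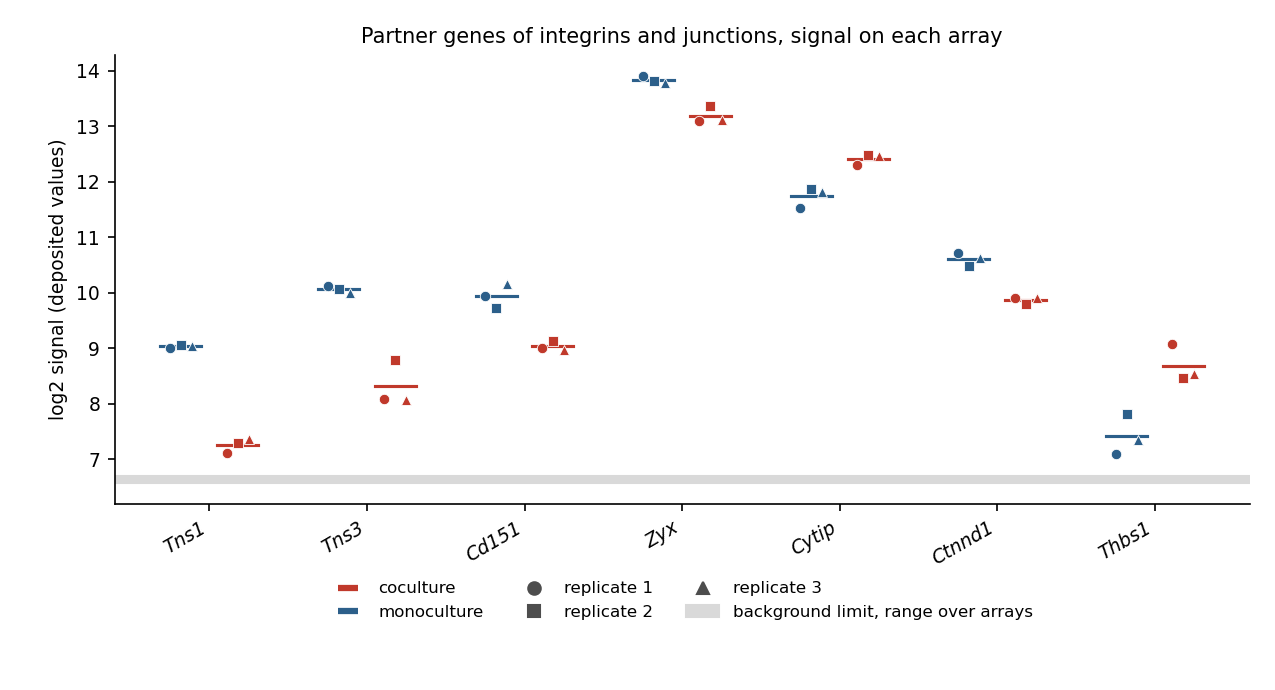
Deposited log2 signal (vertical axis) of 7 partner genes of integrins and junctions that passed the test, with 1 point per array, a bar at each group mean and a band for the range of the background limit. Tns1 and Tns3 show the widest gaps, and Cytip and Thbs1 are higher in coculture.

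Some macrophage markers and the 1 measured megakaryocyte marker were also lower in coculture. Of 16 listed monocyte and macrophage markers, 7 were measured and 3 fell (beside 2.81% of all named genes), namely Gpnmb, Cd68 and Mertk, with log2 fold changes of -4.63, -2.06 and -1.59. The summed signal of the 7 was 23802 to 28951 in coculture and 54159 to 57171 in monoculture, with Msr1 at background on all arrays. Gpnmb, with mean log2 signals of 9.69 in coculture and 14.32 in monoculture, weighs heavily in this sum. Csf1r (-0.92), Lyz2 (-0.14) and Clec7a (-1.02) were above background and did not pass. The 1 measured megakaryocyte marker, Gp1bb, had a log2 fold change of -2.51 and a signal of 103 to 122 in coculture and of 384 to 1183 in monoculture. Of 5 neutrophil markers, Elane rose (0.59), beside 2.97% higher of all named genes. Mpo (0.12), S100a9 (-0.002), Ltf (-0.04) and Csf3r (-0.36) were not called. The summed signal of the 5 was 72158 to 84394 in coculture and 62869 to 75862 in monoculture. Of 3 endothelial markers, Egfl7 rose (1.63), again beside 2.97% of all named genes, whereas Emcn (0.12) and Eng (-0.31) were not called. The summed signal of the 3 was 667 to 999 in coculture and 518 to 684 in monoculture. The part of these cell types in the differences of Cadm1, Alcam, Itgal and the other adhesion genes was not tested. Of the 4 selenium genes caught by their letters, Selenbp1 was called higher (1.58, limma adjusted p = 0.0481).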

How the data were processed

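RNA of lin-/c-kit+ SC was hybridized to Illumina Mouse Sentrix-6 BeadChips. The authors discarded outlier beads, took the mean over the remaining beads of a probe and applied what they call quartile normalization. What they deposited are log2 values with a lowest value of 5.81, a highest of 14.85 and a median of 6.56 on every array. The 12 columns of the deposited non-normalized table were not used, since their numbers match no sample label. From the log2 values, group means of all 46628 probes were compared with limma 3.58.1 (R 4.3.3) and Benjamini-Hochberg adjustment, with group as the only term. This procedure was tested on simulated arrays with independent noise, with changes added to brighter probes only. That test cannot address differences in cell mixture, strain or replicate, or changes in dim probes. Probes were named by the gene ID inside their names with the RefSeq table of GRCm38.p6, which gave 9796 probes of 8102 genes (21% of probes), and 36832 probes have no name here. A gene was represented by its brightest probe, and probes that disagree are given beside it. Where a whole group lay at background, the fold is a lower bound, with those arrays set to their limit. The members, gene lists, background limit and tests were chosen with earlier results of these data known. Called adhesion genes are given with all array values and those above background on all 3 arrays of a group with their fold change. Called partner genes are likewise given. Of the called genes, 1 adhesion gene and 1 partner gene are included in the counts but not reported here. Alternatives left out each array, added the replicate number as a block, left out dim probes, changed the prior variance, array weights, normalization, probe choice, threshold and background limit. With 3 arrays per group, their number limits the precision. The files allow no sequence or coordinate to be shown, because the build of the probe design is not given in the sources used here.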

Additional observations from a re-analysis of the deposited data

How the results depend on the processing

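Cadm1 and Alcam fell whichever array was left out, as did Ceacam19. The count of adhesion genes called lower was 3 to 5 with an array left out and 3 or 4 otherwise. The 1 gene called higher became 0 to 2 with an array left out, 0 with the replicate block, and 2 with dim probes left out, a trend in the prior variance, array weights or the adjusted p alone. Nectin2 was the added gene except under the last, where it was Pcdhgc5. With the mean of a gene's probes, Ceacam19 lost its call (log2 fold change -0.53). Same-numbered arrays did not deviate together over all probes (r = -0.113, -0.111 and -0.101), and none correlated best with its own number, so the numbers were not taken to pair the samples. Over the 99 genes that matched the symbols, selenium genes included, these correlations were 0.14, 0.174 and 0.505. With the replicate block, 1181 in place of 1704 probes were called, the adjusted p was 0.0542 for Itgal and 0.0585 for Alcam, and Itgb2l was called lower (0.0499). Over all probes, 1021 were called without monoculture replicate 1 and 1073 without coculture replicate 1. Of the catenin list, 0 to 1 genes were higher and 1 to 2 lower with an array left out. Of the adaptor list, 0 to 1 were higher. Of the ligand list, 0 to 1 were higher, and 0 with the replicate block. With an array left out, the sign of 3 uncalled log2 fold changes turned, with ranges of -0.014 to 0.064 for Cldn4, -0.22 to 0.12 for Itgam and -0.050 to 0.018 for Pcdha1. The causes were not tested. At a limit of the mean plus 3 SD of the reporter and vector probes, 14 adhesion genes were above background in coculture and 17 in monoculture, in place of 18 and 25. At the signal of a zebrafish Alk7 probe, a limit chosen after seeing the data, these were 11 and 13. Over all probes rather than named genes, 1.73% were called higher. Signal over background limits what can be seen of cadherins, protocadherins and claudins.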
